A study of Mus musculus with 8 samples.

Results

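The genes described here encode mouse acetyltransferases described to act on lysine 56 of histone H3, or paralogs of these, and chaperones that carry histones to DNA. They are 10 genes of 21938 protein-coding genes in the annotation, chosen by their function: Ep300, Crebbp, Kat2a, Kat2b, Asf1b, Chaf1a, Chaf1b, Asf1a, Hira and Nap1l1. The data are the acetylated H3K56 (H3K56ac) peaks that lie in these genes or within 10 kb on either side, which gave 68 of the 105600 peaks of the merged list.

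The mark was mapped by ChIP-seq, in which chromatin fragments bound by an antibody are sequenced, in muscle stem cells (MuSCs) of C57BL/6 mice, the cells beside the muscle fibres that repair them. The cells were isolated fresh, and the labels name 8 libraries: 2 of H3K56ac and 2 of input, chromatin that was not immunoprecipitated, from each of the groups Control and Sirt6mKO. The authors call the Control MuSCs wild type. For another comparison with Sirt6mKO mice they give the control genotype as Sirt6 fl/fl without the Cre recombinase. Sirt6mKO animals carried the floxed Sirt6 allele (Sirt6 fl/fl) and a Cre recombinase expressed constitutively from the Pax7 locus, so SIRT6, a deacetylase of histone H3, was deleted from the skeletal muscle lineage onward and not in the adult stem cell alone. All groups were MuSCs purified by flow cytometry. The labels used here gave no age of the animals.

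A single list of merged peaks was analysed. It gives the start and end of each peak and no value per library, so Control and Sirt6mKO could not be set against each other, replicates could not be compared, and the sequencing depth behind a peak is unknown. A peak below is therefore a region called in at least 1 of the libraries that entered the merge, and its width is the width of the union. The values are exact counts and lengths from this list, without an error, and no test was run on them.

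SIRT6 removes acetyl groups that other enzymes place, and the genes for both sides of this reaction sit in the same chromatin as all others. In mammals, p300 and CBP are the acetyltransferases best known to acetylate H3K56 while it is bound by the chaperone ASF1, and GCN5 has also been described as acting on it. ASF1 passes histones H3 and H4 on to CAF-1, which deposits them behind the replication fork, or to HIRA, which deposits the variant H3.3 outside replication. MuSCs of uninjured muscle are mostly quiescent, and so the 3 classes of genes serve processes that differ in how far a resting cell uses them.

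Gene positions are from GENCODE vM21 on mm10 (GRCm38), and every peak position counts from 1. For each gene, the main transcription start site (TSS) is that of its principal coding transcript. Ep300 (chr15:81585351-81652077, plus strand) encodes p300, and Crebbp (chr16:4081328-4213997, minus strand) encodes its paralog CBP. Kat2a (chr11:100704746-100712465, minus strand) encodes GCN5 and Kat2b (chr17:53566861-53672720, plus strand) encodes PCAF, the paired acetyltransferases of the SAGA and ATAC coactivator complexes.

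The replication-linked chaperones were Asf1b (chr8:83955507-83970197, plus strand), the ASF1 paralog of proliferating cells, and Chaf1a (chr17:56040439-56072289, plus strand) and Chaf1b (chr16:93883901-93906115, plus strand), the large and middle subunits of CAF-1. The replication-independent chaperones were Asf1a (chr10:53596757-53609225, plus strand), the ASF1 paralog that works with HIRA, and Hira (chr16:18877037-18970309, plus strand). Nap1l1 (chr10:111473223-111498150, plus strand), a chaperone of histones H2A and H2B, was kept apart from the 3 classes.

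Each of the 10 genes had a peak over its main TSS. In the annotation as a whole, 58.0% of the protein-coding genes had one. The sequences of 6 promoters under these peaks are shown because these genes differ in base composition and in the short motifs they hold. They are RefSeq entries of GRCm38.p6, each running from 250 bases before to 50 bases after the RefSeq start, and are written 5′ to 3′ along the gene.

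The promoter of Asf1b (chr8:83955444-83955743, plus strand) held 4 CCAAT boxes and 1 CHR (cell cycle genes homology region), which are in capitals. CCAAT boxes bind the factor NF-Y, and a CHR next to them is known from genes expressed late in the cell cycle.
Asf1b: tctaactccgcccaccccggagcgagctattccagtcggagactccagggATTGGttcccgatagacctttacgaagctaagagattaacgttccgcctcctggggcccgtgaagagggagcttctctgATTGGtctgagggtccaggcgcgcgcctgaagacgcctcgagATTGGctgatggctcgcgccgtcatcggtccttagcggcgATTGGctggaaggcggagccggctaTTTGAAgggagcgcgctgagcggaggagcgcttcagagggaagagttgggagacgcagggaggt
The letters searched were CCAAT for the CCAAT box and TTTGAA or TTCGAA for the CHR, on both strands. A CCAAT box was found in 37.4% of the 32851 promoters of the table and a CHR in 19.2%. At least 4 CCAAT boxes were found in 1.06% of the promoters, and together with a CHR in 0.219%. The RefSeq start of Asf1b lies 187 bp downstream of the main GENCODE TSS, so much of this window follows the GENCODE start.

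The 2 promoters of CAF-1 differed from it and from each other. The Chaf1a promoter (chr17:56040166-56040465, plus strand) has its single CCAAT box in capitals, together with a match to an E2F-type word read on the minus strand. The Chaf1b promoter (chr16:93883651-93883950, plus strand) has its 5 GC boxes in capitals.
Chaf1a: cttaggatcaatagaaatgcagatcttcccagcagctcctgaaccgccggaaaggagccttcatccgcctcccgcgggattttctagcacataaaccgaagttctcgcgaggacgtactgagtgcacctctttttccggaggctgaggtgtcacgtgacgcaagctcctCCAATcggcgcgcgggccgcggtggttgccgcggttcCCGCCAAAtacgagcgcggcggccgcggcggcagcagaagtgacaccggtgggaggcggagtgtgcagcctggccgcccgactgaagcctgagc
Chaf1b: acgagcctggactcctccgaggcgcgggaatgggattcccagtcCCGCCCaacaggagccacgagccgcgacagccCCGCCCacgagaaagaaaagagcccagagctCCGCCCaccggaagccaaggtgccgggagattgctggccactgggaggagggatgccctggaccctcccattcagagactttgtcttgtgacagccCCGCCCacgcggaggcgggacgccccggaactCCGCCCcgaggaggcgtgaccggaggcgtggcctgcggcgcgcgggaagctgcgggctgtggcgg
The GC box, bound by SP1-type factors, was searched as GGGCGG. It was found in 35.7% of all promoters, and at least 5 of them in 2.71%. E2F factors control genes of DNA replication. Of the E2F words TTTCCCGC, TTTCGCGC, TTTGCCGC and TTTGGCGC, none was found in the 3 replication-linked promoters. The words that end in G instead, TTTCCCGG, TTTCGCGG, TTTGCCGG and TTTGGCGG, were added after the promoters had been read, and they were found in Chaf1a alone of the members and in 2.38% of all promoters.

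The promoters of the KAT2 paralogs are shown for contrast. The Kat2a promoter (chr11:100712418-100712717, minus strand) held an E2F word and an NRF1 core (TGCGCA), both in capitals. Kat2b had 2 entries, the main start (chr17:53566721-53567020, plus strand), with its CCAAT box in capitals, and a start 17155 bp further downstream in intron 1 (chr17:53583876-53584175, plus strand), with 2 E-boxes of the letters CAGCTG in capitals.
Kat2a: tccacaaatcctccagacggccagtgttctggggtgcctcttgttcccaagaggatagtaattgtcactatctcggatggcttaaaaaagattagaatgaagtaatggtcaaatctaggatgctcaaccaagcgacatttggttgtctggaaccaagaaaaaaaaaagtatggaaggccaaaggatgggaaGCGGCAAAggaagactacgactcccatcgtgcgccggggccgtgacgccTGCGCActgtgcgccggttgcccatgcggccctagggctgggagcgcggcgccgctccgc
Kat2b main start: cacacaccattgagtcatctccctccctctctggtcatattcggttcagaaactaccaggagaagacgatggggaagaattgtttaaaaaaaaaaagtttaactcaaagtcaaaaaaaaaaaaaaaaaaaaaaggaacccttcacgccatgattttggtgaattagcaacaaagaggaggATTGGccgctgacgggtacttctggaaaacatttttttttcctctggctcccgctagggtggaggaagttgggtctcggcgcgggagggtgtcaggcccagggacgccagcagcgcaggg
Kat2b downstream start: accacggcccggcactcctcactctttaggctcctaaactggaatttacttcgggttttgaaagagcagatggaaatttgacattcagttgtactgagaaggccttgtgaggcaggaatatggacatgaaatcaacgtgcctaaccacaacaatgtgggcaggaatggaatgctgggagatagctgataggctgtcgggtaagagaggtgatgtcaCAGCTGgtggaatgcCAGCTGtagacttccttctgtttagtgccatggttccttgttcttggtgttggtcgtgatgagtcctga
E2F words were found in 2.26% of all promoters, the NRF1 core in 7.76%, the E-box in 16.3% and at least 2 E-boxes in 1.90%. CAGCTG is a form of the E-box that the myogenic factors MYOD1 and MYF5 can bind. A match of letters is a description of the sequence, and binding was not measured.

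The 11 promoter entries of the 10 genes differed in their number of CpG dinucleotides. The RefSeq start lay at 817 bp from the main TSS in Ep300, at 593 bp in Crebbp and at -316 bp in Hira. The entries of Ep300 and Crebbp thus lie within the first exon, and that of Hira lies upstream of the main TSS. Crebbp had 49 CpGs, a number above that of 99.0% of all promoters, and a GC content of 82.0%. Ep300, Asf1b, Chaf1a, Chaf1b, Asf1a, Hira and Nap1l1 had between 27 and 32. Kat2a had 19 CpGs, the main start of Kat2b had 11 and its downstream start had 6, against a median of 7 and quartiles of 3 and 20 over all promoters. The KAT2 paralogs thus had fewer CpGs than the other 8 genes.

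The remaining motifs did not follow the classes. ETS words (CCGGAAG, in 8.86% of promoters) occurred in Chaf1b and Hira. The CRE half-site (TGACG, in 20.8%) occurred in Kat2a, the main start of Kat2b, Asf1b, Chaf1a and Nap1l1. No member had the TATA box letters TATAAA, which 13.6% of promoters held. Peaks covered 10 of the 11 entries completely, and 85.7% of the Asf1a entry.

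The peak over the main TSS differed between the classes in where it lay. For the acetyltransferases it reached mainly into the gene, as it did in 66.0% of all coding genes with such a peak. For the replication-linked chaperones it reached mainly away from the gene. In Ep300 the peak was 3936 bp wide and 99.2% of it lay downstream of the TSS. In Crebbp it was 4989 bp wide with 78.4% downstream, in Kat2b 6241 bp with 72.5%, and in Kat2a 2345 bp with 70.2%.

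All 3 replication-linked chaperones had a smaller share downstream. The Asf1b peak was 3083 bp wide with 25.4% downstream of the TSS, that of Chaf1b 4474 bp with 25.8%, and that of Chaf1a 2493 bp with 40.3%. The 4 acetyltransferases and these 3 genes did not overlap in this share. Over the 12717 coding genes with a peak at the main TSS the median share downstream was 59.5%, with quartiles of 44.2% and 75.1%. The replication-linked genes were thus all below the lower quartile, at percentiles 6.15, 19.4 and 6.31 for Asf1b, Chaf1a and Chaf1b. Ep300 and Crebbp were above the upper quartile, at percentiles 99.2 and 79.1. Kat2a and Kat2b lay between the quartiles, at percentiles 68.4 and 71.5, and so did not stand out from other coding genes. The 2 classes also stayed apart with the RefSeq start in place of the main TSS (66.5% to 78.5% and 19.3% to 41.2%). When peaks less than 1 kb apart were joined, the acetyltransferases ran from 49.7% to 90.8% and the replication-linked genes from 4.72% to 25.8%. Joining added the peak over the start of Sh3gl1 to the TSS peak of Chaf1a, and that over the start of Hspb9 to Kat2a. The joined shares of Chaf1a (4.72%) and Kat2a (49.7%) thus take in starts of neighbours.

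The chaperones that work outside replication resembled the acetyltransferases in this measure. Their TSS peaks, and that of Asf1b, also covered a coding start of a neighbour on the opposite strand. These were Mcm9 for Asf1a, Mrpl40 for Hira and Gm10644 for Asf1b, so the extent of these peaks cannot be assigned to either gene. The Asf1a peak was 4430 bp wide with 95.5% downstream, and the Hira peak was 6396 bp wide, the widest main TSS peak among the 10 genes, with 66.3% downstream. The share of Asf1a depended on a gap of 131 bp upstream of its TSS and was 52.3% when peaks less than 1 kb apart were joined. The Nap1l1 peak was 4153 bp wide with 36.7% downstream. In base pairs, the peaks reached 3905 bp into Ep300, 3912 bp into Crebbp, 4524 bp into Kat2b, 4231 bp into Asf1a and 4238 bp into Hira. They reached 783 bp into Asf1b, 1004 bp into Chaf1a, 1156 bp into Chaf1b, 1526 bp into Nap1l1 and 1646 bp into Kat2a, all less than the median reach of 1816 bp over all such genes.

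**Figure D1:**
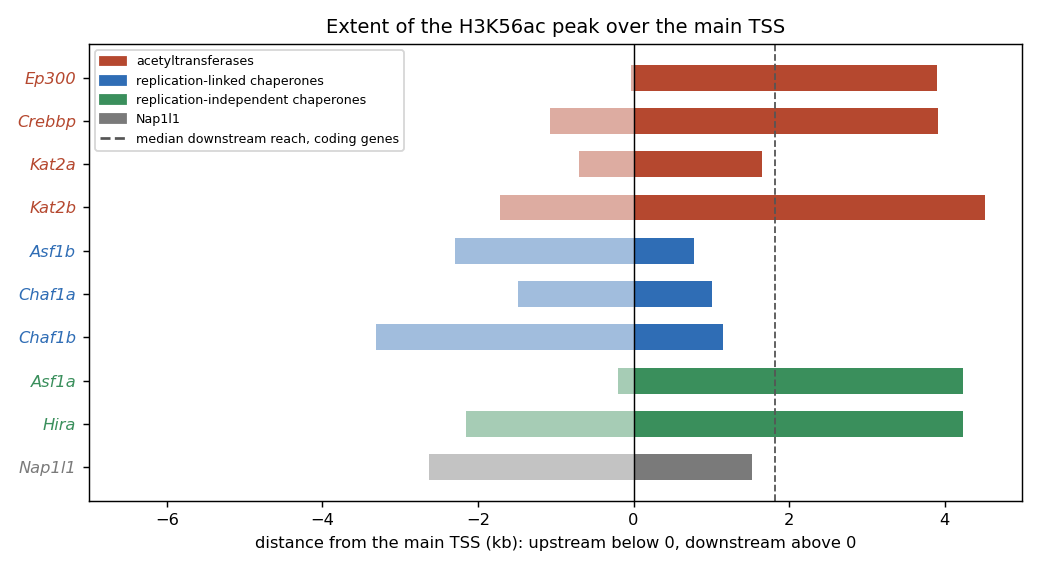
Extent of the H3K56ac peak over the main TSS of each gene, in kb upstream (pale bars, below 0) and downstream (full colour) of the TSS, coloured by class. The dashed line marks the median downstream reach of 1816 bp over 12717 coding genes, which the bars of Ep300, Crebbp, Kat2b, Asf1a and Hira pass.

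The width of the peak followed the classes less closely. The median was 4462.5 bp for the 4 acetyltransferases, 3083 bp for the 3 replication-linked chaperones and 5413 bp for the 2 replication-independent chaperones, beside 3437 bp (quartiles 2344 and 4887 bp) over all coding genes with such a peak. The classes overlapped, since the narrowest peak of all, that of Kat2a, belonged to an acetyltransferase. In all, 7 of the 10 genes were above the median of all genes.

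What followed the TSS peak differed between the genes and did not follow the classes throughout. Ep300, Crebbp and Kat2b had a row of further peaks in intron 1, while Chaf1a, Chaf1b and Nap1l1 had the TSS peak and no other. Peaks that lay wholly within intron 1 were found in 6 of the 10 genes, against 20.7% of all coding genes and 30.4% of those with a main TSS peak. They numbered 11 in Crebbp, 5 in Kat2b, 3 in Ep300, 2 in Asf1b and 1 each in Asf1a and Hira, with 0 in Kat2a, Chaf1a, Chaf1b and Nap1l1. Intron 1 was 14.2 kb long in Ep300, 33.0 kb in Crebbp and 43.3 kb in Kat2b, against 3.51 kb in Chaf1a, 0.49 kb in Chaf1b and 0.144 kb in Kat2a. In the last 2 genes the TSS peak covered the whole intron, so it had no room for a peak of its own.

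In Ep300, the peaks covered 98.3% of the first 10 kb from the TSS. After the TSS peak came intron 1 peaks of 4024, 2427 and 429 bp and a peak of 1702 bp in intron 2, and beyond 20 kb from the TSS no base of the gene was covered. The only other peak downstream was 200 bp wide, the narrowest of the 68, and began 67054 bp from the TSS, past the end of the gene. The part of Ep300 under peaks was thus its 5′ end.

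Crebbp was covered over 95.7% of its first 10 kb. Its 11 peaks in intron 1, from 391 to 2964 bp wide, began 3954 bp from the TSS and ended at 33013 bp, close to the end of the intron of 33.0 kb. Further peaks lay in intron 2 (4458 and 570 bp), in intron 3 (4 peaks of 476 to 1132 bp) and over exon 4 (3151 bp). This last peak ended 76086 bp from the TSS, and the rest of the gene held none.

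Kat2b had the widest peak of the set. It was 16046 bp wide, lay in intron 1 between 8669 and 24714 bp from the TSS, and covered the downstream start whose sequence with 2 E-boxes is given above. It was wider than 99.8% of all peaks, and 1034 peaks (0.979% of the list) were at least 10 kb wide. With its neighbours of 2849, 1017, 4868 and 3313 bp it covered 64.9% of the intron, and with the ends of the peaks over exons 74.3%, and 93.5% of the first 20 kb of Kat2b lay under peaks. Past intron 1 there were only a peak of 1674 bp over an exon and peaks of 468 and 590 bp in introns 3 and 11.

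Kat2a, the shortest gene of the set at 7.72 kb, had another arrangement. Its intron 1 of 0.144 kb lay wholly under the TSS peak, which covered exons 1 to 5. The second peak in the gene, 2262 bp wide at its 3′ end, also covered the start of the neighbour Dhx58. The other 5 peaks of its window lay in the flanks, among them 1 of 922 bp over the start of Hspb9.

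Among the replication-linked chaperones, Asf1b alone had peaks beyond the TSS peak. There were 4, of 659, 2236, 1166 and 753 bp, between 5035 and 11378 bp from the TSS, and peaks covered 38.1% of the gene. Chaf1a was covered over 3.16% of its length and Chaf1b over 5.21%, all of it by the TSS peak. The 2 genes of CAF-1 had no peak from 1004 and 1156 bp after the TSS, respectively, to the end of the gene.

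Asf1a and Hira each had 1 small peak in intron 1, of 696 bp directly after the TSS peak in Asf1a and of 736 bp, 12759 bp from the TSS, in Hira. The share of the gene that was covered nevertheless differed, with 41.1% of Asf1a and 5.36% of Hira, since Asf1a was 12.5 kb long and Hira 93.3 kb. Nap1l1 was covered over 6.13%.

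**Figure D2:**
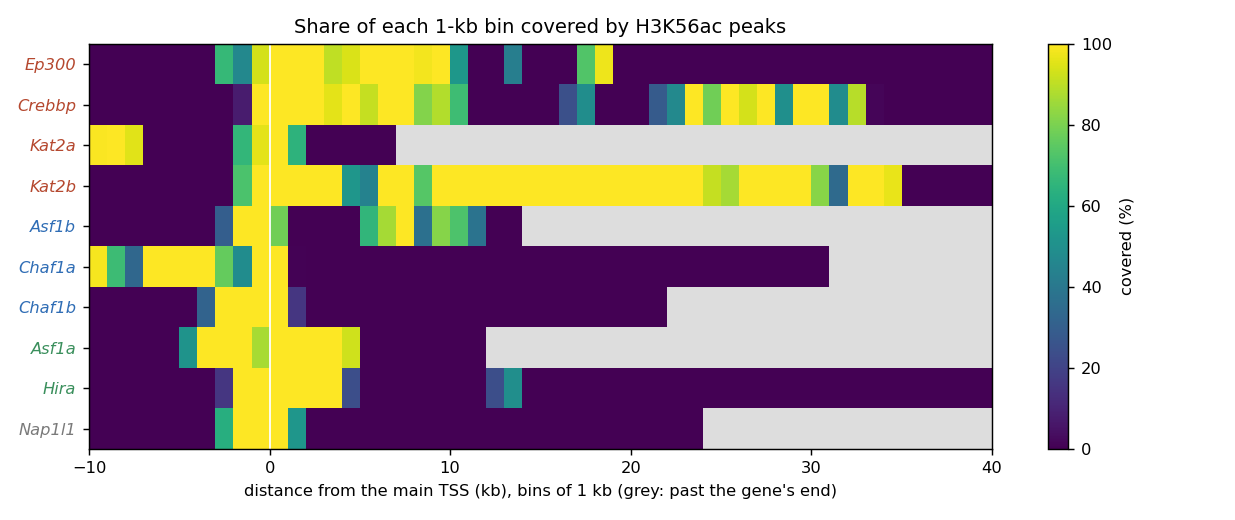
Share of each 1-kb bin covered by H3K56ac peaks, from 10 kb upstream to 40 kb downstream of the main TSS of each gene. Bins past the end of the gene are grey; Ep300, Crebbp and Kat2b are covered through most of the first 10 kb, and Chaf1a and Chaf1b for little more than the first kilobase.

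Gene length differed between the classes, with medians of 86.3 kb for the acetyltransferases, 22.2 kb for the replication-linked and 52.9 kb for the replication-independent chaperones, and so each gene was ranked among coding genes within 20% of its own length. Kat2b stood at percentile 89.2 of 1162 genes, whose median cover was 7.31%. Asf1a stood at 88.8, Asf1b at 88.6, Crebbp at 83.1, Ep300 at 78.5 and Kat2a at 65.3. These 6 genes were above the median of their length.

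The other 4 were below it. Hira stood at percentile 41.9, Nap1l1 at 36.2, Chaf1b at 32.3 and Chaf1a at 26.3, where the median cover of 2360 genes of like length was 8.36%. The ASF1 paralogs were thus close to each other in rank, and above the chaperones they pass histones to. Most of the cover of Asf1a lay under its TSS peak of 4430 bp, which also covered the start of Mcm9. The cover of intron 1, ranked among introns of like length, gave percentiles of 90.9 for Asf1a, 90.7 for Kat2b, 86.9 for Ep300, 83.9 for Crebbp, 71.4 for Asf1b and 63.3 for Hira. It was below the median in Chaf1a (46.9) and Nap1l1 (44.1). In Chaf1b and Kat2a the cover was 100%, equal to the median of introns of like length. Their percentiles of 48.7 and 46.5 come from ties, since only lower values are counted.

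**Figure D3:**
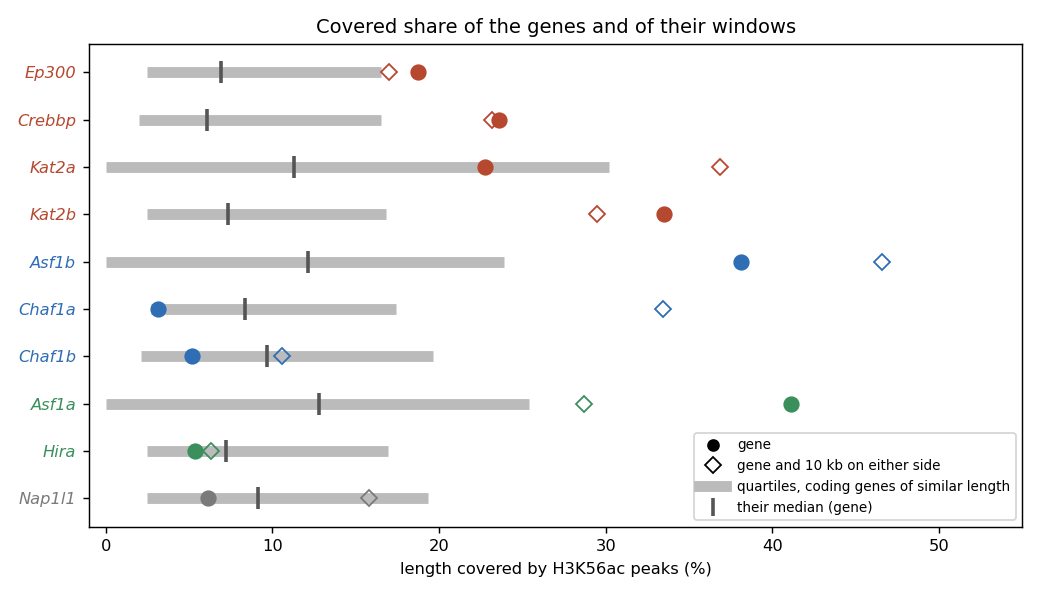
Share of each gene (circles) and of the gene with 10 kb on either side (diamonds) that H3K56ac peaks covered, in percent, coloured by class as in the other plots. Grey bars and dark ticks give the quartiles and the median for coding genes within 20% of the length; Chaf1a moves from 3.16% for the gene to 33.4% for its window.

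When the 10 kb on either side were counted, the order of the classes changed. The median cover of the window was 26.3% for the acetyltransferases (17.0% to 36.9%), 33.4% for the replication-linked chaperones (10.6% to 46.6%) and 17.5% for the replication-independent chaperones (6.30% and 28.7%). For the genes alone the medians were 23.2%, 5.21% and 23.2%. The last is that of 2 genes, Hira with 5.36% and Asf1a with 41.1%. The classes overlapped in both measures. Over all coding genes with a main TSS peak the medians were 17.4% for the window and 17.1% for the gene, and 6 of the 10 genes were above each.

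The difference lay in the neighbours. In Chaf1a, peaks covered 82.5% of the upstream and 80.8% of the downstream 10 kb, including peaks of 4992, 5337 and 2739 bp over the starts of Sh3gl1, Ubxn6 and Hdgfl2. In Asf1b, peaks of 2791 and 4559 bp lay over starts of Prkaca, the catalytic subunit of protein kinase A. In Chaf1b no peak of the window covered the coding start of another gene, and the cover was 10.6%. Without the 13 peaks that covered the start of another coding gene, the medians were 23.3% for the acetyltransferases, 10.6% for the replication-linked and 1.40% for the replication-independent chaperones.

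This step also left out the TSS peaks of Asf1a, Hira and Asf1b themselves, each of which covered a start on the opposite strand. Within 1 kb of the main TSS, 3 of the 10 genes had the start of a coding transcript on the opposite strand, against 10.4% of all coding genes. In Hira it was Mrpl40, a protein of the mitochondrial ribosome, 204 bp away, and in Asf1b it was Gm10644, 302 bp away. In Asf1a it was Mcm9, a helicase of DNA repair, 696 bp into the gene. In each of the 3 a single peak covered both starts, and it cannot be assigned to either gene.

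**Figure D4:**
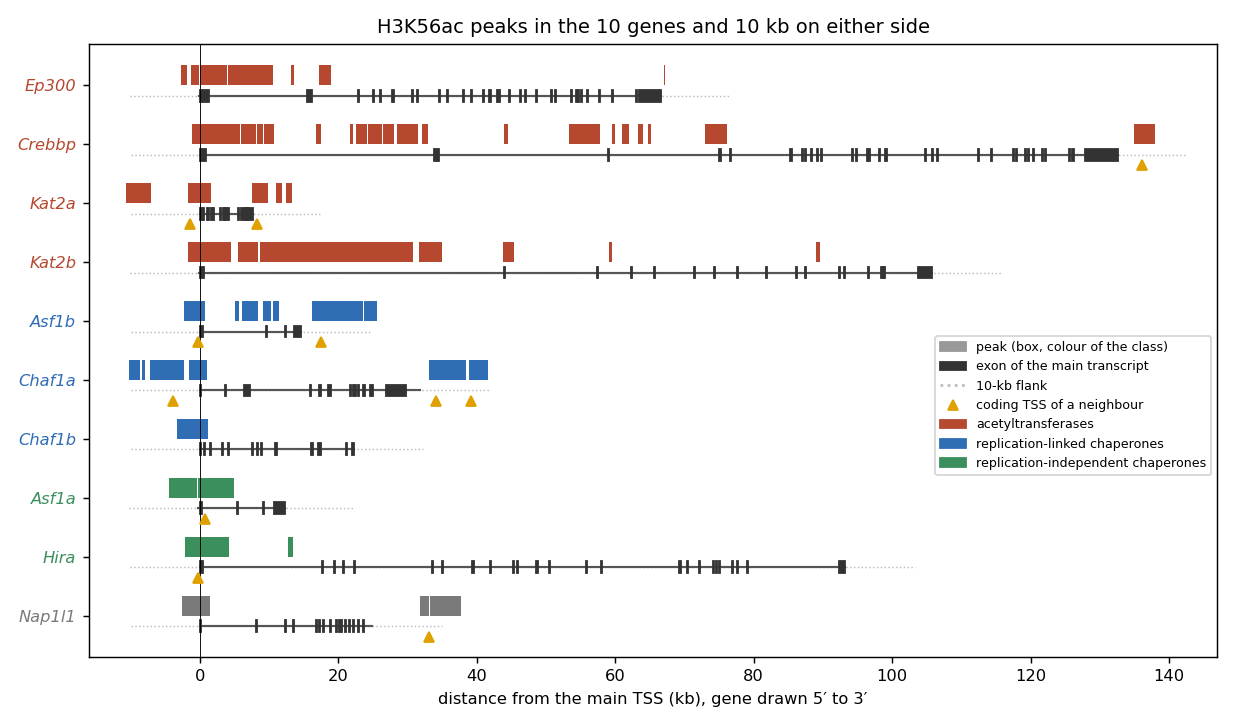
H3K56ac peaks (boxes, coloured by class) in the 10 genes and 10 kb on either side, as distance from the main TSS in kb, each gene drawn 5′ to 3′ with its exons. Triangles mark coding starts of other genes, which lie under flank peaks in Chaf1a and Asf1b. In Crebbp 11 of the 20 peaks lie within the first intron, and in Kat2b 5 of the 9.

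The paralogs can be read side by side. Ep300 had 8 peaks in its window and Crebbp 20, and the cover of the gene was 18.8% and 23.6%. Kat2a had 7 peaks and Kat2b 9, with 22.8% and 33.5% of the gene covered. Asf1a had 3 peaks and Asf1b 8, with 41.1% and 38.1% of the gene and 28.7% and 46.6% of the window covered. In each pair the paralog with more peaks also had more peaks within intron 1, which are part of that count. Intron 1 was also longer in that paralog. Cover did not follow the number of peaks throughout: the gene with fewer peaks had the higher cover of the gene in the ASF1 pair, and the higher cover of the window in the KAT2 pair (36.9% in Kat2a and 29.5% in Kat2b).

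By place, 10 of the 68 peaks lay over a main TSS, 2 over another start of the same gene, 3 over an exon, 32 within an intron, 10 upstream and 11 downstream of the gene. The acetyltransferases held 44 of the 68 and 27 of the 32 within an intron, the replication-linked chaperones 16 and 3, the replication-independent chaperones 5 and 2, and Nap1l1 3 and 0. Promoter and intron peaks differed in sequence. The TSS peaks had a median GC content of 49.9% and a ratio of observed to expected CpGs of 0.615 (0.388 to 0.752), and the intron peaks 40.6% and 0.118 (0 to 0.403).

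Within intron 1 alone, the 22 peaks that covered no start had a median GC content of 40.3% and a ratio of 0.141. The same medians over all peaks of the list within a first intron were 44.5% and 0.186, and over those at main starts 50.2% and 0.490. The 16046-bp peak of Kat2b had a GC content of 43.7% and a ratio of 0.211, the composition of an intron peak although it covered a start. The TSS peak of Kat2a had the lowest ratio among TSS peaks, at 0.388.

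**Figure D5:**
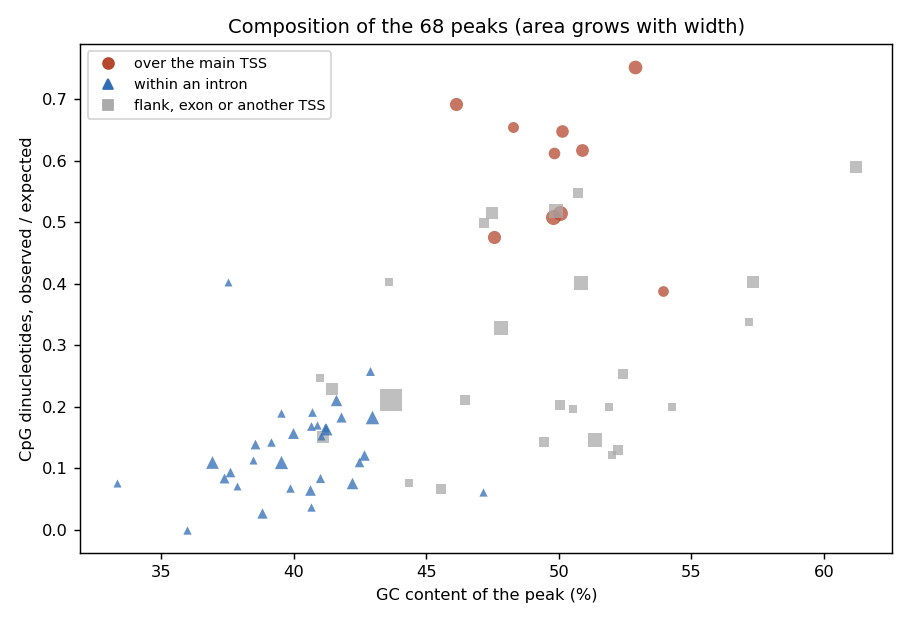
GC content (%) against the ratio of observed to expected CpG dinucleotides for each of the 68 peaks, with marker area growing with peak width. The 10 peaks over a main TSS (circles) lie between 0.388 and 0.752 in the ratio, and the 32 peaks within an intron (triangles) between 0 and 0.403.

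Many of the peaks were separated by very short gaps. Between neighbouring peaks of a gene there were 35 gaps under 1 kb, with a median of 217 bp, and 11 were of at most 100 bp. A median of 42.9% of the bases in the 35 gaps was marked as repeat in the genome, against 24.1% in the peaks, and 5 gaps held no such base. The 11 gaps of at most 100 bp varied widely. Those of 19, 4, 15 and 31 bp in Ep300, Kat2a, Chaf1a and Asf1a held no repeat base. Those of 89 bp in Crebbp and Kat2b were masked over 10.1% and 27.0%. The rest were masked over 42.9% (Asf1b), 60.6% (Ep300), 73.2% and 100% (both Crebbp) and 81.0% (Kat2a). The reads had been kept only where they aligned to a single place, and the part of this step in the gaps was not tested. The sequences of 4 gaps are shown because they bear on how many peaks a gene was counted to have, with repeat-masked bases in capitals, 5′ to 3′ along the gene.

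Crebbp, intron 1, 26384 to 26446 bp from the TSS (chr16:4187551-4187613, minus strand): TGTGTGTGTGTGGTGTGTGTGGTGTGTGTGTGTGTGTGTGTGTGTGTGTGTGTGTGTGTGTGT
Kat2a, -740 to -699 bp from the TSS (chr11:100713164-100713205, minus strand): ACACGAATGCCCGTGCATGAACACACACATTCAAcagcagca
Ep300, -96 to -31 bp from the TSS (chr15:81585301-81585366, plus strand): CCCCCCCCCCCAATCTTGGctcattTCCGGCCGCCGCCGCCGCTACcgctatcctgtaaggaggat
Asf1a, -329 to -199 bp from the TSS (chr10:53596623-53596753, plus strand): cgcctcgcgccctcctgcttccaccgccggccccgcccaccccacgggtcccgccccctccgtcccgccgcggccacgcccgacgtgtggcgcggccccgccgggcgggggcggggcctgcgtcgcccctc
The Crebbp gap of 63 bp consisted mostly of TG repeats and was masked throughout, and it separated peaks of 1573 and 2015 bp. The Kat2a gap of 42 bp was masked over 81.0% and the Ep300 gap of 66 bp over 60.6%. The Asf1a gap of 131 bp had no masked base but a GC content of 86.3%, with 23 CpGs. It separated the TSS peak from a peak of 4185 bp that covered another start of Mcm9. The Ep300 gap set the upstream limit of its TSS peak, and beyond it lay a peak of 1234 bp, so the share of 99.2% downstream rests on this gap and was 79.8% with peaks less than 1 kb apart joined.

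The genes that work with these 10 mostly had a peak at their starts too, and Hat1 and Mcm2 stand in 2 of the lists each. The counts in this and the following lists stand beside 58.0% of all coding genes with a main TSS peak. A main TSS peak was found at 15 of 15 other lysine acetyltransferases, from 1132 bp in Taf1 to 10829 bp in Ncoa1, a coactivator of nuclear receptors that binds p300 and CBP. Of the subunits of SAGA and ATAC, the complexes of KAT2A and KAT2B, 23 of 24 had one, with Atxn7l3 as the exception, whose nearest peak was 246 bp away. Their widths ran from 1556 bp in Usp22 to 8895 bp in Dr1.

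Of 15 partners of CAF-1, ASF1 and HIRA, 14 had a main TSS peak, from 2098 bp in Rbbp7 to 7655 bp in Nasp, a chaperone of soluble H3 and H4. Tlk2, a kinase of ASF1, had none at its main TSS, with the nearest 855 bp away. Of 22 other histone chaperones, 19 had one, from 1531 bp in Nap1l3 to 10273 bp in Spty2d1. The exceptions were Nap1l2 (nearest peak 100713 bp away), Npm2 (3223 bp) and Anp32b (25 bp). The H3.3 genes H3f3a and H3f3b, whose product HIRA deposits, had main TSS peaks of 2686 and 797 bp.

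The opposing enzymes and a replication list gave a scale for these values. All 7 sirtuins had a main TSS peak, from 2158 bp in Sirt1 to 9625 bp in Sirt2, and 9 of 11 classical histone deacetylases did, from 2428 bp in Hdac8 to 7335 bp in Hdac5, without Hdac6 and Hdac9. The median cover of the gene was 23.2% for the sirtuins, 14.6% for the deacetylases and 21.7% for the other lysine acetyltransferases. For the 6 MCM helicase genes, which serve replication, it was 8.17%, from 5.90% in Mcm5 to 38.2% in Mcm7. All 6 had a main TSS peak, from 2200 bp in Mcm5 to 4743 bp in Mcm7. The median was 5.21% (3.16% to 38.1%) for the replication-linked chaperones. It was 23.2% (18.8% to 33.5%) for the acetyltransferases and also 23.2% for the 2 replication-independent chaperones, which had 5.36% (Hira) and 41.1% (Asf1a). These medians were not matched for gene length.

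The cell type of the list was checked against markers. All 9 MuSC markers had a main TSS peak, with a median width of 12012 bp, from 599 bp in Cdh15 to 30239 bp in Myf5. Peaks were absent from the main TSS of 3 of 3 blood and 3 of 3 hepatocyte markers. They were present at 1 of 3 endothelial (Kdr, 1139 bp), 1 of 3 mature myofibre (Myh4, 1024 bp) and 1 of 3 fibro-adipogenic markers (Dpt, 9775 bp). Peaks away from the main TSS were found in some of the others. Pecam1, an endothelial marker, had 17 peaks in its window, 27.5% of the gene covered and a peak over another annotated start. Pdgfra, a fibro-adipogenic marker, also had a peak over another start. The hepatocyte marker Apoa1 had 83.6% of its short gene covered, whereas the 3 blood markers had no peak in their windows. The part of other cells in the peaks of the 10 genes was not tested.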

How the data were processed

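ChIP-seq of H3K56ac was described for 8 libraries in 4 groups of 2. The authors trimmed reads with Trim Galore, aligned them to mm10 with bowtie keeping single alignments, removed duplicates with Picard, called peaks with MACS2, removed blacklisted regions and merged the peaks with GenomicRanges. The labels also name FastQC, SAMtools and deepTools. The deposited list gives the start and end of each peak, and its score column was 0 in every row and was not used. It has 0 columns with values per sample, so groups, replicates and depth could not be compared and no test was run. Labels were used only to describe the groups.

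Peaks that overlapped a gene with 10 kb on either side (GENCODE vM21, mm10) by at least 1 bp were counted with Python 3.11.15, numpy 2.4.6 and pysam 0.24.0. The main TSS was that of the APPRIS principal coding transcript. Cover is the share of base pairs under peaks. Percentiles are the share of a reference set that had a lower value. For gene cover the set was coding genes within 20% of the length. For intron 1 cover it was genes with a first intron within 20% of the length. For the downstream share it was all coding genes with a main TSS peak. CpG numbers were ranked among all promoters and peak widths among all peaks. The interval functions were tested on simulated data. Promoters are RefSeq entries of 300 bases, and repeat masking is that of the assembly. The genes named are the 10 members and, in each other list, those without a main TSS peak and those with the narrowest and the widest. Gaps and promoters printed, the neighbours named, and the E2F words ending in G were chosen after their values or sequences were seen. The members and lists were chosen with earlier results of these data known. Protein sequences were not used here.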

Additional observations from a re-analysis of the deposited data

How the results depend on the processing

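The list limits these results, since peaks are a union of libraries of unknown depth and carry no strength. No paired analysis was possible because the list has no value per sample. Of 78 alternative values, 3 reversed and 45 moved, and in the other 30 counts stayed within 1.5 times, percentiles within 5 points and other values equal to 3 digits. The 68 peaks became 47 without flanks, 88 with 25-kb flanks, 60 at 500 bp and 55 without peaks over another coding TSS. All 10 genes kept a main TSS peak with any annotated TSS, peaks within 1 kb, peaks of at least 500 bp, or, added after seeing the data, the RefSeq start. Percentiles by length moved by at most 1.28 with genes within 50% of the length.

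The median window cover of the acetyltransferases minus the replication-linked chaperones was -7.11 percentage points. It reversed to 17.98 without flanks and to 12.7 without peaks over another coding TSS, which leave out flank peaks and, in the latter case, also the TSS peak of Asf1b. It was -2.83 with 25-kb flanks, -9.55 with gaps under 1 kb joined, -5.85 with peaks of at least 500 bp and -4.73 with Asf1a counted as replication-linked. For the acetyltransferases minus the replication-independent chaperones, the difference of 8.84 became -0.0356 without flanks, 9.30 with 25-kb flanks, 10.4 joined, 8.21 at 500 bp, 21.9 without peaks over another coding TSS, 20.03 with Asf1a moved and 10.5 with Nap1l1 added.

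The class medians moved accordingly. For the acetyltransferases (26.3%) they were 23.2% without flanks, 23.5% with 25 kb, 28.2% joined, 25.7% at 500 bp and 23.3% without peaks over another coding TSS. For the replication-linked chaperones (33.4%) they were 5.21%, 26.4%, 37.7%, 31.5% and 10.6% in the same order, and 31.1% with Asf1a added. For the replication-independent chaperones (17.5%) they were 23.2%, 14.2%, 17.7%, unchanged at 500 bp, and 1.40%, with 6.30% without Asf1a and 15.8% with Nap1l1. Joining gaps under 1 kb left 33 of the 68 peaks and raised the median main TSS peak to 9002.5 bp for the acetyltransferases, 4474 bp for the replication-linked and 7934.5 bp for the replication-independent chaperones, so that the first difference grew from 1379.5 to 4528.5 bp. The shares of the TSS peak downstream of the TSS under joined peaks and RefSeq starts, given with the results, were added after seeing the data, and the largest changes were those of Asf1a (95.5% to 52.3% joined) and Chaf1a (40.3% to 4.72% joined).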
